A study of Mus musculus with 12 samples.

Results

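Genes of glucose uptake, glycolysis, lactate handling and glycogen metabolism were followed in mouse quadriceps, 33 genes in all, chosen by name and grouped by role. The array annotation matched 31 of them by symbol, and Gpi1 and Eno1 were unnamed here. Gapdh was the sole symbol of 3 array control probe sets only and shared its other 3 probe sets with further symbols, and Aldoc was too dim, so 29 genes were tested among 12771: 6 of uptake, 7 of glycolysis, 4 of lactate handling and 12 of glycogen. The muscle came from C57Bl/6J mice dosed for 6 days with AICAR (250 mg/kg/day), with GW1516 (5 mg/kg/day), with the pair at the same doses, called the combination here, or with vehicle alone. AICAR is a compound that cells convert to an AMP mimic, which activates the energy sensor AMPK, and GW1516 is a drug that switches on PPARδ, a fatty acid-sensing transcription factor. Each of the 4 groups had 3 arrays, and each array was hybridised with RNA pooled from 3 mice. The labels do not say whether pools shared mice, so the p-values measure the spread between pools. Numbers 1 to 3 of a group only name its arrays, and all 3 comparisons with vehicle share the same 3 vehicle arrays.

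Skeletal muscle takes up glucose through the transporter GLUT4, which moves to the cell surface on insulin or contraction, and hexokinase traps the sugar as glucose 6-phosphate. Glycolysis then splits it to pyruvate, which fast-twitch fibres can reduce to lactate and export. Glucose 6-phosphate can instead be stored as glycogen, built through UDP-glucose and glycogen synthase and broken down by phosphorylase.

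None of the 29 genes was called in any comparison at an adjusted p below 0.05 in limma, which moderates each gene's variance with that of the others. The smallest adjusted p among them was 0.586 for AICAR against vehicle, 0.361 for GW1516 against vehicle, and 0.209 for the combination against vehicle. Few genes were called anywhere on the arrays: 0.00783% of all genes tested for AICAR, 0.094% for GW1516 and 0.258% for the combination, each against vehicle. For the combination the share was 0.0313% against AICAR and 0% against GW1516, for the interaction it was 0%, and for the F test over the 4 groups it was 0.11%. A count of 0 among 29 genes stood near these backgrounds, and it does not show that the genes were unaffected.

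The differences themselves were small. Over the 29 genes the median log2 difference from vehicle was 0.04 with AICAR, 0.02 with GW1516 and 0.06 with the combination, beside medians of 0.01, -0.01 and -0.0048 over all genes tested. Genes with a mean above vehicle numbered 16 of 29 with AICAR, 16 with GW1516 and 20 with the combination. The 95% interval of the difference lay within 1.5-fold in either direction for 22 of the 29 genes with AICAR, 20 with GW1516 and 22 with the combination. These genes were measured more tightly than most, with a median SE of a difference of 0.11 on the log2 scale against 0.19 over all genes. Ugp2 and Ppp1r3c, both of glycogen synthesis, had the smallest p-values against vehicle and are described first among the glycogen genes.

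At an unadjusted p below 0.05, 4 of 29 genes passed with AICAR (Pgam1, Ppp1r3c, Tbc1d1 and Ugp2), beside 6.93% of all genes. With GW1516 4 passed (Gyg, Phkb, Slc16a3 and Ugp2), beside 9.64%. With the combination 5 passed (Aldoa, Hk2, Ppp1r3c, Slc2a4 and Ugp2), beside 10.9%. For the combination against AICAR 2 genes passed (Pgam1 and Tbc1d1), beside 7.32%, and against GW1516 4 passed (Gaa, Gyg, Hk2 and Ppp1r3a), beside 10.4%. The interaction gave 2 (Gyg and Tbc1d1), beside 6.64%, and the F test gave 4 (Gyg, Pgam1, Ppp1r3c and Ugp2), beside 10.4%. Ugp2 was the 1 gene that passed this looser threshold against vehicle in all 3 drug groups. The listed share was 13.8% with AICAR, 13.8% with GW1516 and 17.2% with the combination. Leaving out 1 array moved these counts, to 1 with AICAR (without AICAR array 3 or vehicle array 1), to between 2 and 5 with GW1516 and between 3 and 7 with the combination. Without GW1516 array 1 the combination gave 11 genes against GW1516, and the interaction 8 in place of 2. Without combination array 2, 0 genes passed for the combination against AICAR. The share over all genes was not computed with an array left out, so these counts have no background beside them.

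**Figure D1:**
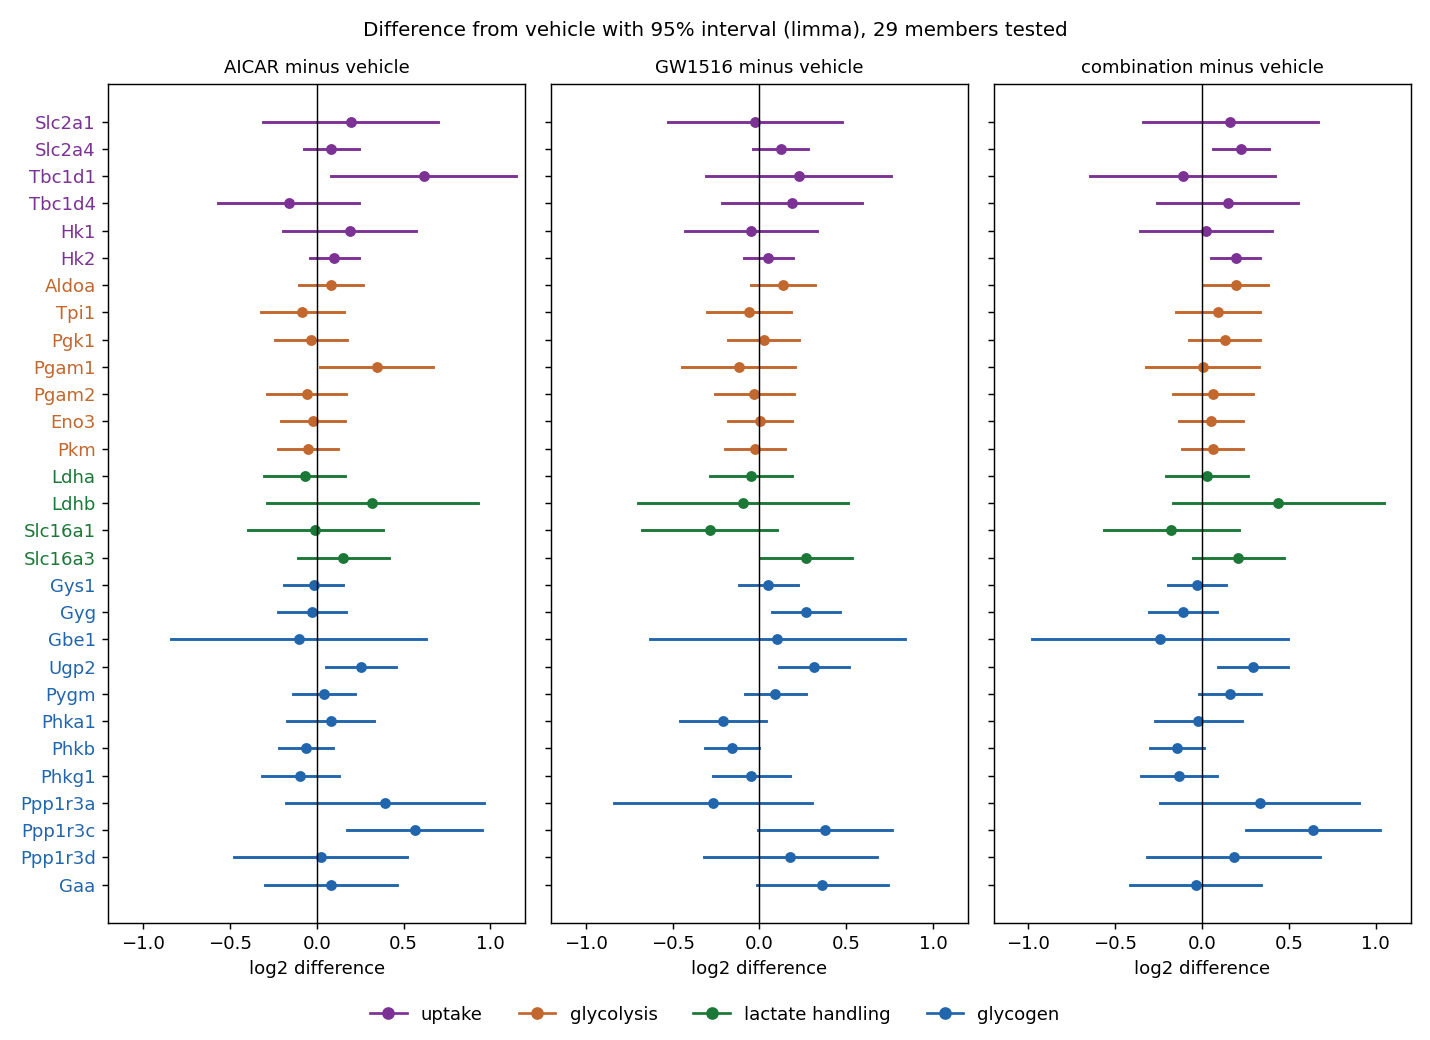
Log2 difference from vehicle (horizontal axis) with its 95% interval for each of the 29 genes, by role, in 3 panels for AICAR, GW1516 and the combination. Ugp2 lies above 0 in every panel, at 0.25, 0.31 and 0.29, and most glycolysis intervals are short and cross 0.

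Counted by arrays that did not overlap, 8 of 29 genes stood above all 3 vehicle arrays with AICAR (Aldoa, Gaa, Hk2, Pgam1, Ppp1r3a, Ppp1r3c, Tbc1d1 and Ugp2), beside 9.3% of all genes, and 5 stood below them (Ldha, Pgam2, Pkm, Tbc1d4 and Tpi1), beside 9.03%. With GW1516 3 stood above (Gyg, Slc2a4 and Ugp2), beside 6.3%, and 0 below, beside 7.91%. With the combination 6 stood above (Aldoa, Hk2, Pgk1, Pygm, Slc2a4 and Ugp2), beside 8.9%, and 2 below (Gyg and Phkb), beside 9.69%. These counts moved with the scaling of the arrays: after centring each array on its median, AICAR gave 2 above and 11 below, and GW1516 5 and 0. They also moved with single arrays, whose absence can only raise them. GW1516 gave 9 above and 3 below without its array 2, and 6 above without its array 1 or vehicle array 3. The combination gave 14 above without its array 1 and 11 without vehicle array 3. AICAR gave 12 above without its array 1 and 8 below without vehicle array 2. The share over all genes was not computed after centring or with an array left out. These counts therefore have no background and are not read as results about the listed genes. Median centring shifted all genes tested by -0.11 for AICAR and -0.08 for the combination on the log2 scale, so its values are read against that shift.

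The tissue matched its label. All 10 skeletal muscle markers, all 13 fast-twitch markers and 8 of 9 slow-twitch markers passed the filter on dim probe sets. The slow-twitch marker that did not pass was Myh7, the slow myosin heavy chain. Median signals per array lay between 45.4 and 54.2 after the scaling of every array to a trimmed mean of 200. GW1516 array 2 stood apart from the other 11: the 8 fibroblast markers had a median log2 difference of -1.41 from the vehicle mean there, against -0.29 to 0.16 elsewhere. No cell type marker was called against vehicle. In bulk muscle, fewer cells of a type and less RNA per cell cannot be told apart.

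The windows upstream of 4 genes are shown because Ugp2 and Ppp1r3c had the smallest p-values against vehicle, and Ldha and Pgam2 stand for the bright glycolytic genes that varied together. Each is the 250 bases before the RefSeq start, 5′ to 3′ on the gene's strand, in GRCm38.p6: Ugp2 at chr11:21371268-21371517 (minus strand), Ppp1r3c at chr19:36736605-36736854 (minus), Ldha at chr7:46845554-46845803 (plus) and Pgam2 at chr11:5803797-5804046 (minus). Capitals mark ACGTG on either strand, the core shared by E-boxes and hypoxia response elements, and a stretch that reads CACGTG holds it on both strands.
Ugp2: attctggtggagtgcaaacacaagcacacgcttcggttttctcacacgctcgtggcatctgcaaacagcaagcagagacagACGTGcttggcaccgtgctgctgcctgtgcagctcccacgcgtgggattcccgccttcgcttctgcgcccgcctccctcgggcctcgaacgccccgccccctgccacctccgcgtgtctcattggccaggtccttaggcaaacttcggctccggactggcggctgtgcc
Ppp1r3c: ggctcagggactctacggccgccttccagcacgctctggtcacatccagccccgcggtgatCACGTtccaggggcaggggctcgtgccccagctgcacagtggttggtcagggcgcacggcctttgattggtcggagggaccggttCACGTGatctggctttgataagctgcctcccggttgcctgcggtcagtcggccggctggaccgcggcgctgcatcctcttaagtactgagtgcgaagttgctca
Ldha: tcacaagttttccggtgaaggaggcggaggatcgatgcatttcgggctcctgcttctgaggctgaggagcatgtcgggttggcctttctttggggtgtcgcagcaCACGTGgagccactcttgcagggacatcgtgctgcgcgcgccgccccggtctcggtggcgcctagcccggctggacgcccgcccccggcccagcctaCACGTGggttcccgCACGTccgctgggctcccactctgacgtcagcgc
Pgam2: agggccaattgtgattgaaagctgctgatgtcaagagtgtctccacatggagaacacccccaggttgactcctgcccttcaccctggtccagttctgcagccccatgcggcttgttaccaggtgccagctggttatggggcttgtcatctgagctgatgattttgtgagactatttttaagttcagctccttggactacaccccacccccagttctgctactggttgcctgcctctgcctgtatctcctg
Ugp2 has a second annotated start and so does Ldha, and those windows held no match. Among windows of 250 bases upstream of all genes in the RefSeq table, ACGTG occurred on either strand in 16.6% of 32851, and in 15 of 42 windows of the listed genes (35.7%), which came from 14 of 32 genes. AGGTCA, the core of PPAR response elements, occurred in 14.0% of all windows and in 7 of 42 (16.7%), from Aldoa, Eno1, Eno3, Gaa, Ldhb and Pkm. GTAAACA, a FOXO site, occurred in 3.17% of all windows and in 1 of the listed genes, Aldoc. Slc2a4 was not matched to a window. A match is a description of letters, not of binding.

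Glucose uptake was described by 6 genes. Their median difference from vehicle was 0.14 with AICAR, 0.09 with GW1516 and 0.15 with the combination, and 0 of 6 were called. These medians were unsteady: averaging the probe sets of a gene gave 0.056 with AICAR, 0.050 with GW1516 and 0.049 with the combination, and median centring gave 0.027, 0.12 and 0.076. Without combination array 1 the combination median was 0.077, and without vehicle array 1 the GW1516 median was 0.034. Slc2a4, which encodes GLUT4, had signals of 5399, 5298 and 4993 on the vehicle arrays and 5154, 6041 and 5468 with AICAR. They were 5827, 5519 and 5719 with GW1516 and 5846, 6091 and 6388 with the combination. Neither the GW1516 nor the combination arrays overlapped vehicle, and AICAR array 2 lay among the combination arrays. The log2 difference was 0.08 ± 0.074 (SE, n = 3 per group) with AICAR, 0.12 with GW1516 and 0.22 with the combination, with an adjusted p of 0.287 in limma for the last and an interval from 0.06 to 0.38. The other probe set of the gene gave 0.18, -0.02 and 0.14 for AICAR, GW1516 and the combination.

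Hk2, the insulin-responsive hexokinase of muscle, was one of the tightest genes. Its signals were 4755, 4982 and 4890 with vehicle, 5143, 5268 and 5266 with AICAR, 5157, 4881 and 5109 with GW1516, and 5511, 5309 and 5931 with the combination. All 3 combination arrays lay above the other 9. The difference from vehicle was 0.10 ± 0.066, 0.05 and 0.19 on the log2 scale for AICAR, GW1516 and the combination, and the last had an adjusted p of 0.296 in limma. Hk1, the more widely expressed hexokinase, stood at 0.19, -0.05 and 0.02. A dimmer probe set that names Hk1 alone gave -0.46, -0.09 and -0.31.

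Tbc1d1 and Tbc1d4 encode Rab GTPase-activating proteins that hold GLUT4 vesicles back until they are phosphorylated. The Tbc1d1 signals were 174, 270 and 283 with vehicle, 354, 318 and 425 with AICAR, 220, 383 and 253 with GW1516, and 213, 166 and 297 with the combination. The AICAR arrays lay above every vehicle and every combination array. The difference from vehicle was 0.61 ± 0.25 with AICAR (adjusted p = 0.664), 0.23 with GW1516 and -0.11 with the combination, and the combination stood at -0.73 against AICAR (adjusted p = 0.643). The interaction was -0.95 ± 0.35 with an adjusted p of 0.723 in limma. Without vehicle array 1, the lowest of that group, the difference was 0.39 with AICAR, 0.0036 with GW1516 and -0.33 with the combination. Without GW1516 array 2 the GW1516 difference was -0.0065. The other 3 probe sets of Tbc1d1 did not share this pattern: they gave 0.13, -0.05 and -0.03 with AICAR and 0.29, 0.45 and 0.07 with the combination.

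Tbc1d4, also called AS160, had signals of 583, 620 and 575 with vehicle, 550, 504 and 535 with AICAR, 588, 778 and 669 with GW1516, and 982, 566 and 507 with the combination. The AICAR arrays lay below the vehicle arrays, and combination array 1 alone stood far above the rest. The differences were -0.16 ± 0.19, 0.19 and 0.15, and the other probe set of the gene gave -0.71, 0.01 and -0.60. Slc2a1, which encodes the basal transporter GLUT1, had signals from 83 to 155 and stood at 0.20, -0.02 and 0.16. Its other probe sets gave -0.22, -0.15 and -0.09, and 0.06, -0.04 and -0.31.

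**Figure D2:**
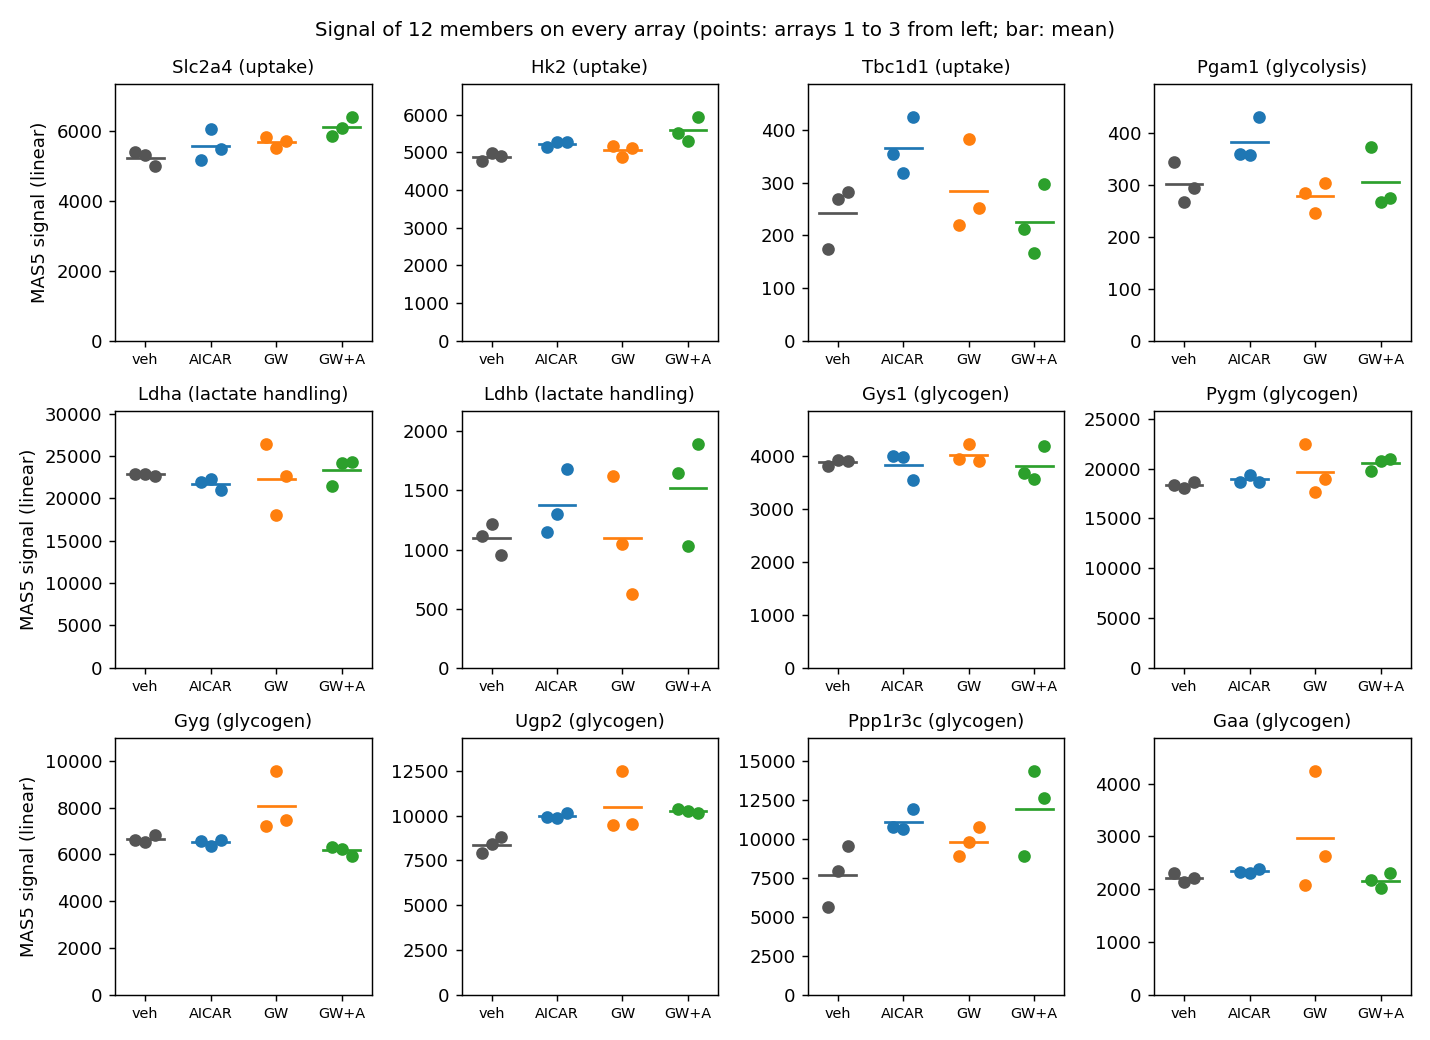
MAS5 signal (vertical axes, linear from 0) of 12 genes on every array, grouped as vehicle (veh), AICAR, GW1516 (GW) and the combination (GW+A), with points for arrays 1 to 3 from left and a bar at each group's mean. Ugp2 is lowest on the 3 vehicle arrays (7911 to 8824), and GW1516 array 2 is the highest point for Ugp2, Gyg and Gaa.

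Glycolysis below hexokinase differed little from vehicle in any drug group. Its 7 genes had a median difference from vehicle of -0.03 with AICAR, -0.03 with GW1516 and 0.06 with the combination, and 0 of 7 were called. The 95% interval lay within 1.5-fold for 6 of 7 genes with AICAR, 7 with GW1516 and 7 with the combination, where the intervals ran from -0.32 to 0.38 in all. The sign of the medians depended on the scaling: the combination median was -0.01 after quantile normalization and -0.02 after median centring, while the AICAR median was -0.06 and -0.15. Without GW1516 array 2, the GW1516 median was 0.10.

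Aldoa, the muscle aldolase, had signals of 25475, 25715 and 24774 with vehicle, 27030, 27320 and 26083 with AICAR, 31911, 24413 and 27594 with GW1516, and 28017, 29018 and 29902 with the combination. The AICAR and combination arrays lay above vehicle, and the GW1516 arrays spread to both sides of it. The difference was 0.08 ± 0.086, 0.14 and 0.19. Pgam2, the muscle phosphoglycerate mutase, had vehicle signals of 17793, 18155 and 18862 and AICAR signals of 17746, 17588 and 17269, below every vehicle array. Its GW1516 signals were 21214, 14439 and 18721, the highest and lowest of all 12 arrays being GW1516 arrays 1 and 2. Tpi1, Pgk1 and Eno3, which encode triose phosphate isomerase, phosphoglycerate kinase and the muscle enolase, had the same highest and lowest arrays. Pkm, pyruvate kinase, had the same lowest array, and the signals of these 4 genes ran from 13026 to 26033.

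Pgam1, the widely expressed mutase, did not follow Pgam2. Its signals were 344, 268 and 295 with vehicle, 360, 358 and 431 with AICAR, 284, 247 and 303 with GW1516, and 374, 267 and 275 with the combination. The AICAR arrays lay above the vehicle arrays and the other groups overlapped them. The difference with AICAR was 0.34 ± 0.15 (adjusted p = 0.708), and it was -0.12 with GW1516 and 0.0044 with the combination. The 9 adipocyte markers on the array had summed signals of 17373 to 25811 with vehicle and 20271 to 36689 with AICAR. They were 16286 to 30394 with GW1516 and 18429 to 33513 with the combination, where the Pgam1 arrays overlapped vehicle. With group means removed, Pgam1 correlated with the median of these markers at r = 0.83 over 12 arrays. This was the highest of 9 marker lists for Pgam1, chosen after the values were seen, and the part of adipocyte RNA in the Pgam1 difference was not tested.

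Gapdh was not tested, since no probe set outside the array controls named it alone. On its 5′ control probe set the signal was 24005, 24463.1 and 25332.9 with vehicle and 26029.1, 27445.9 and 27092 with the combination. The 3 control probe sets gave 0.13 to 0.17 for the combination against vehicle, the same direction as Aldoa. The 3 other probe sets, which carry 5, 2 and 2 symbols, gave 0.35, -0.14 and 0.02. Aldoc, the brain aldolase, ranged from 4.18 to 48.2 and was left out as dim.

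Lactate handling was described by 4 genes, of which 0 were called. Ldha encodes the muscle-type subunit of lactate dehydrogenase and Ldhb the heart-type subunit. The Ldha signals were 22928, 22877 and 22667 with vehicle, 21972, 22262 and 20986 with AICAR, 26389, 17982 and 22671 with GW1516, and 21479, 24179 and 24272 with the combination. The AICAR arrays lay just below the vehicle arrays, and the other groups ran to both sides. The differences were -0.07 ± 0.11, -0.05 and 0.03.

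The Ldhb signals were 1112, 1216 and 955 with vehicle, 1148, 1297 and 1684 with AICAR, 1622, 1043 and 627 with GW1516, and 1648, 1034 and 1891 with the combination. The arrays of every group overlapped those of vehicle. The differences were 0.32 ± 0.28, -0.09 and 0.44, and the last had an adjusted p of 0.604 in limma. All 4 probe sets of Ldhb had a mean above vehicle with AICAR, from 0.04 to 0.42, and with the combination, from 0.17 to 0.78. With GW1516 all 4 had a mean below it.

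Slc16a1 and Slc16a3 encode MCT1 and MCT4, monocarboxylate carriers linked mainly to lactate import and export. The Slc16a1 signals were 472, 654 and 524 with vehicle, 498, 535 and 598 with AICAR, 461, 486 and 399 with GW1516, and 652, 362 and 474 with the combination. The groups overlapped, and the differences were -0.01 ± 0.18, -0.29 and -0.18. Slc16a3 had vehicle signals of 3427, 3077 and 3787 and GW1516 signals of 4255, 3450 and 4755, and its differences were 0.15 ± 0.12, 0.27 and 0.21. The GW1516 difference had an adjusted p of 0.514 in limma.

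The glycogen genes held the smallest p-values of the list, though 0 of 12 were called. Their median difference from vehicle was 0.03 with AICAR, 0.10 with GW1516 and -0.03 with the combination. Median centring turned the AICAR median to -0.084 and took the combination median to -0.10, while averaging the probe sets of a gene turned the combination median to 0.086. The combination median was also above 0 without vehicle array 1 (0.017) or combination array 2 (0.014). Ugp2 encodes the enzyme that makes UDP-glucose, the donor for glycogen synthesis. Its signals were 7911, 8405 and 8824 with vehicle, 9921, 9855 and 10145 with AICAR, 9497, 12467 and 9512 with GW1516, and 10388, 10245 and 10129 with the combination. All 9 arrays of treated mice lay above the 3 vehicle arrays. The difference was 0.25 ± 0.094 with AICAR (adjusted p = 0.642), 0.31 with GW1516 (adjusted p = 0.361) and 0.29 with the combination (adjusted p = 0.263), which are 1.19-fold, 1.24-fold and 1.22-fold.

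The combination difference of Ugp2 was close to that of each drug alone, and the interaction was -0.27 ± 0.13 with an adjusted p of 0.748 in limma. All 5 probe sets of Ugp2 had a mean above vehicle in every drug group, from 0.11 to 0.38 with AICAR, 0.28 to 0.37 with GW1516 and 0.08 to 0.47 with the combination. All arrays of the group lay above vehicle in 4 of the 5 with AICAR, 2 with GW1516 and 4 with the combination. GW1516 array 2 was the highest Ugp2 array. Without it the GW1516 difference was 0.18 (adjusted p = 0.567), and the combination difference, still 0.29, was called with an adjusted p of 0.0235, the array entering that test only through the shared spread. The share of all genes called without that array was not computed. With group means removed, Ugp2 correlated with the median of the 8 fibroblast markers at r = -0.91 over 12 arrays, and Gyg at -0.89, the strongest of 9 marker lists for each gene. GW1516 array 2 was the lowest of the 12 for this median (-1.41) and the highest for both genes. These correlations were not computed without it. The summed fibroblast signal ran from 25619 to 35031 with vehicle, 26734 to 36275 with AICAR, 13992 to 29619 with GW1516 and 25964 to 26968 with the combination. The part of fibroblast RNA in these values was not tested.

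Ppp1r3c encodes PTG, a glycogen-targeting subunit of protein phosphatase 1 that favours glycogen storage. Its signals were 5615, 7940 and 9528 with vehicle, 10742, 10659 and 11953 with AICAR, 8881, 9778 and 10746 with GW1516, and 8876, 14329 and 12599 with the combination. The AICAR arrays lay above all vehicle arrays, the other groups overlapped them, and vehicle array 1 was the lowest of the 12. The difference was 0.56 ± 0.18 with AICAR (adjusted p = 0.586), 0.38 with GW1516 (adjusted p = 0.520) and 0.64 with the combination (adjusted p = 0.209), or 1.48-fold, 1.30-fold and 1.56-fold. Without vehicle array 1 the differences were 0.35, 0.17 and 0.43. A second probe set of the gene gave 0.72, 0.56 and 0.75.

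Ppp1r3a, the striated-muscle targeting subunit, had signals of 66, 70 and 78 with vehicle, 90, 101 and 90 with AICAR, 40, 79 and 65 with GW1516, and 70, 102 and 100 with the combination. The AICAR arrays lay above vehicle, and the GW1516 and combination arrays overlapped it. The differences were 0.39 ± 0.27, -0.27 and 0.33, and the combination stood at 0.60 against GW1516 (adjusted p = 0.456). Ppp1r3d, another targeting subunit, stood at 0.02, 0.18 and 0.18 with signals from 71 to 114.

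Gys1, the muscle glycogen synthase, showed differences near 0 on its brightest probe set. Its signals were 3824, 3930 and 3909 with vehicle, 4004, 3982 and 3546 with AICAR, 3953, 4229 and 3908 with GW1516, and 3686, 3571 and 4199 with the combination. The groups overlapped, the differences were -0.02 ± 0.079, 0.05 and -0.03, and the intervals lay between -0.20 and 0.22. The other probe set of the gene, a dimmer one, gave 0.10, 0.15 and 0.21 for AICAR, GW1516 and the combination.

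Gyg encodes glycogenin, the self-glucosylating primer of the glycogen particle. Its signals were 6619, 6528 and 6822 with vehicle, 6587, 6361 and 6617 with AICAR, 7212, 9547 and 7492 with GW1516, and 6335, 6254 and 5921 with the combination. The GW1516 arrays were the 3 highest of the 12 and the combination arrays the 3 lowest. The differences were -0.03 ± 0.092, 0.27 (adjusted p = 0.436) and -0.11, and the combination stood at -0.38 against GW1516 (adjusted p = 0.251). The interaction was -0.35 ± 0.13 with an adjusted p of 0.723 in limma. Without GW1516 array 2 the GW1516 difference was 0.14, and the second probe set gave 0.10, 0.35 and 0.11, which puts the combination above vehicle.

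Gbe1, the branching enzyme, varied between arrays, with signals of 198, 230 and 156 with vehicle, 132, 161 and 269 with AICAR, 161, 386 and 141 with GW1516, and 193, 126 and 176 with the combination. GW1516 array 2 was far the highest. The differences were -0.10 ± 0.34, 0.10 and -0.24, and without that array the GW1516 difference was -0.35. Gaa, the lysosomal glucosidase that degrades glycogen and is deficient in Pompe disease, had signals of 2306, 2129 and 2210 with vehicle, 2330, 2313 and 2384 with AICAR, 2075, 4228 and 2626 with GW1516, and 2165, 2017 and 2298 with the combination. GW1516 array 2 again stood far above the rest, the differences were 0.08 ± 0.18, 0.36 and -0.04, and without it the GW1516 difference was 0.08.

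Glycogen breakdown was led by Pygm, the muscle phosphorylase, with signals of 18399, 18010 and 18658 with vehicle, 18641, 19399 and 18691 with AICAR, 22445, 17643 and 18914 with GW1516, and 19760, 20794 and 20998 with the combination. The combination arrays lay above vehicle and the other 2 drug groups overlapped it. The differences were 0.04 ± 0.083, 0.09 and 0.16, and the last was 0.03 after quantile normalization. Phosphorylase kinase, which activates phosphorylase, was measured through 3 subunits: Phkb stood at -0.06, -0.16 and -0.14, Phka1 at 0.08, -0.21 and -0.02, and Phkg1 at -0.09, -0.05 and -0.13. The other probe sets of Phka1 gave 0.13, 0.14 and 0.19, and 0.03, -0.04 and 0.08. GW1516 array 2 was the lowest array for Phka1 and Phkb. All 3 combination arrays of Phkb lay below the vehicle arrays.

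**Figure D3:**
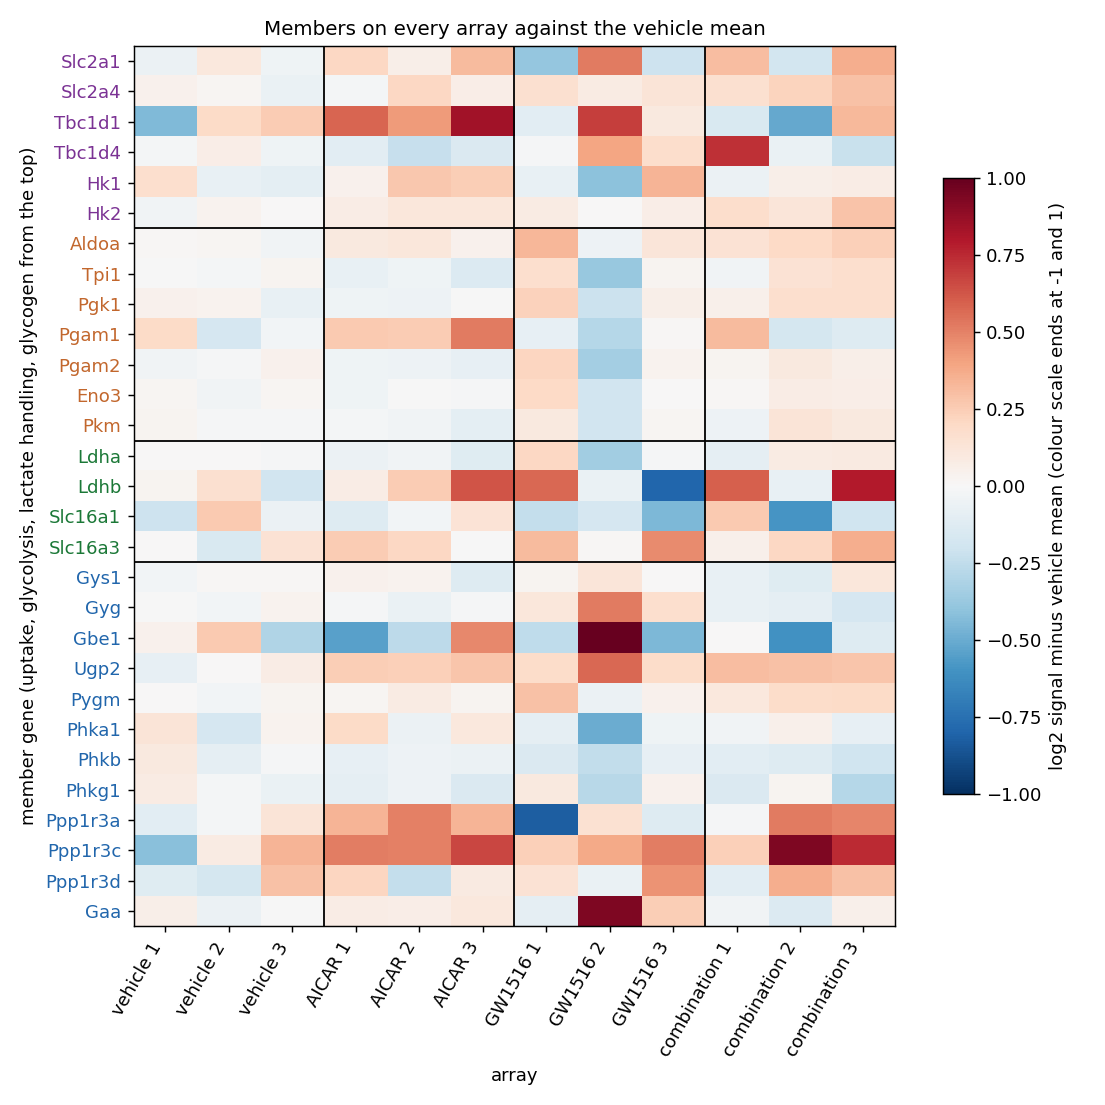
Log2 difference of each of the 29 genes from its vehicle mean on each of the 12 arrays, with genes in rows by role and arrays in columns by group. GW1516 array 2 is the lowest array for 12 of the 29 genes and the highest for 6, which shows as the column that stands out.

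The bright genes of glycolysis and lactate handling, the only roles given a brightness cut, varied together from array to array. Aldoa, Tpi1, Pgk1, Pgam2, Eno3, Pkm and Ldha each had a mean signal of at least 10000. Their median difference from the vehicle mean was 0.21 on GW1516 array 1, -0.21 on array 2 and 0.03 on array 3. It was -0.04, -0.04 and -0.08 on the AICAR arrays and 0.01, 0.13 and 0.10 on the combination arrays. GW1516 array 2 was the lowest of the 12 for all 7 genes, and array 1 the highest for 6.

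Once group means were removed, the 21 pairs of these genes had correlations of 0.84 to 0.98 over 12 arrays, with a median of 0.93, while the other 385 pairs of the list had a median of -0.03. Both genes of a pair were read on the same arrays, and so from the same scaling and the same pools. The GW1516 arrays carried much of the correlation: over the 9 other arrays the median was 0.60, with a range from -0.19 to 0.96. Among the brighter glycogen genes, Pygm followed the bright glycolytic genes at r = 0.92, while Ppp1r3c, with signals of 5615 to 14329, stood at r = 0.05. Gyg, Gaa, Ugp2 and Slc2a1 ran opposite to the bright glycolytic genes at -0.93, -0.93, -0.87 and -0.85. GW1516 array 2 was the lowest of the 12 for Pygm and the highest for Gyg, Gaa, Ugp2 and Slc2a1. The correlations of these genes without it were not computed. The 86 other genes of this brightness were taken from outside the listed and other pathway genes. They varied with the bright glycolytic genes, at r = 0.96 over 12 arrays and 0.90 without the GW1516 arrays. Their medians on the GW1516 arrays were 0.21, -0.11 and 0.01, and on the combination arrays 0.10, 0.11 and 0.15. On the AICAR arrays they were 0.03, 0.02 and -0.03, each above the glycolytic median of the same array.

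The fast-twitch markers varied with the bright glycolytic genes within groups, though not between vehicle and AICAR. Their summed signal ran from 273280 to 285237 with vehicle, 289569 to 292951 with AICAR, 267502 to 345674 with GW1516 and 313116 to 315794 with the combination, and with group means removed the median of the 13 correlated with the bright glycolytic genes at r = 0.92 over 12 arrays and 0.71 without the GW1516 arrays. The skeletal muscle list, which shares markers with the fast-twitch list, stood at r = 0.86 over 12 arrays. The fibroblast list stood at 0.72 and the other lists between -0.16 and 0.39. Fast-twitch markers were not kept out of the 86 other bright genes. On the AICAR arrays the fast-twitch median was 0.07, 0.04 and 0.06, above vehicle, where that of the bright glycolytic genes was below it. Their part in the glycolytic values was not tested. Quantile normalization, which forces all arrays to 1 distribution, left the bright glycolytic genes at -0.10, -0.08 and -0.07 with AICAR, -0.05, -0.13 and -0.04 with GW1516, and -0.08, -0.04 and -0.02 with the combination, against 0.01, 0.02 and -0.01 with vehicle. On that scale all 9 arrays of treated mice lay below the 3 vehicle arrays, and on the deposited scale they did not.

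**Figure D4:**
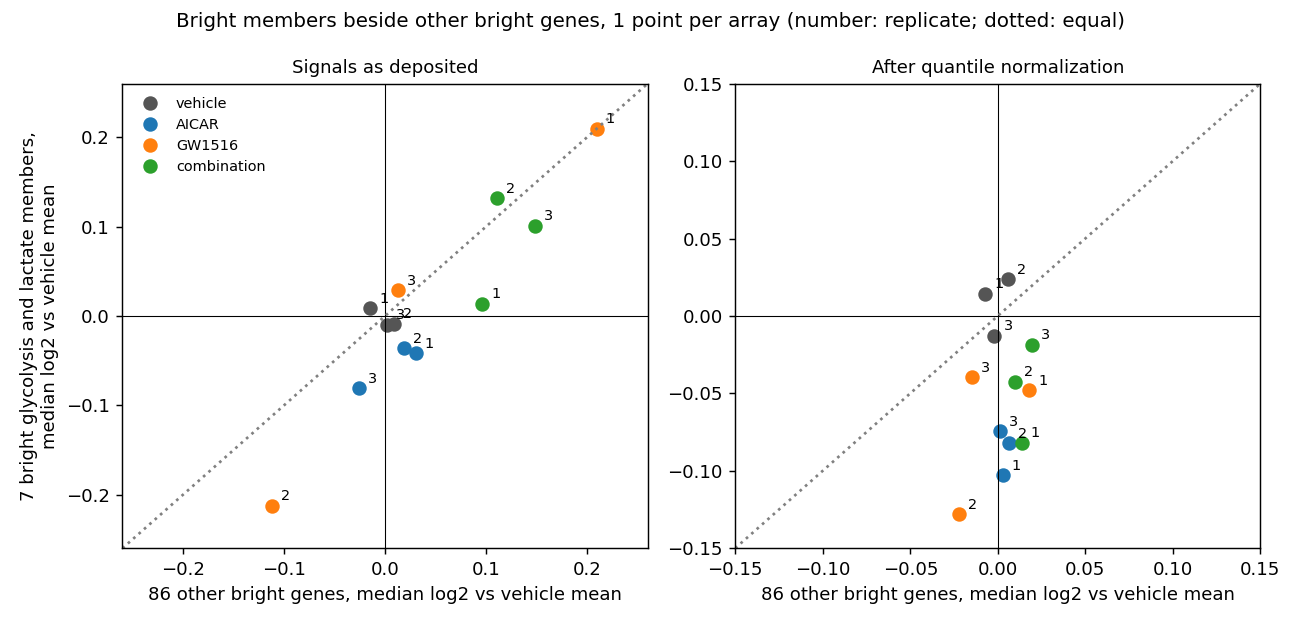
Median log2 difference from the vehicle mean of the 7 bright glycolysis and lactate genes (vertical axis) against that of the 86 other genes of this brightness (horizontal axis), 1 point per array, for the signals as deposited (left) and after quantile normalization (right, on a finer scale). On the left GW1516 arrays 1 and 2 lie at 0.21 and -0.21, and on the right all 9 drug arrays lie below the vehicle arrays.

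Isoform pairs were compared by the difference of their log2 differences, as a description. Pgam2 relative to Pgam1 stood at -0.40 with AICAR against vehicle, all 3 arrays lying below the vehicle range, and at 0.09 with GW1516 and 0.06 with the combination. Ldha relative to Ldhb stood at -0.39 with AICAR, 0.05 with GW1516 and -0.41 with the combination, with AICAR array 1 and combination array 2 within the vehicle range. Slc16a3 relative to Slc16a1 stood at 0.16, 0.55 and 0.39. Hk2 relative to Hk1 stood at -0.09, 0.10 and 0.17. Each gene of a pair was read from the brightest probe set that names it alone.

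Different probe sets of a gene often disagreed on these small differences. Among the 16 genes with several probe sets past the filter, all probe sets of a gene shared the sign in 10 with AICAR, 12 with GW1516 and 6 with the combination. Ugp2, Ppp1r3c, Ldhb, Gaa and Phkg1 did so in all 3, and Tbc1d1 did so with GW1516 but not in the other 2 drug groups.

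Among 56 other genes of these pathways that were tested, 0 were called with AICAR against vehicle, beside 0.00783% of all genes. With GW1516 1 was called (1.79%, beside 0.094%), and with the combination 2 were (3.57%, beside 0.258%). These other genes were listed with earlier results of these data known, so the shares are a description and not a test of the pathway. Fbp2, the muscle fructose bisphosphatase, rose by 0.96 ± 0.13 with GW1516 (adjusted p = 0.00779) and by 1.31 with the combination (adjusted p = 0.000432), and Pfkfb3, which makes the phosphofructokinase activator fructose 2,6-bisphosphate, fell by 2.29 ± 0.22 with the combination (adjusted p = 0.000432). The next smallest F tests belonged to genes that were not called: Txnip, an inhibitor of glucose uptake, stood at -0.48, 0.19 and -0.08, and Akt2, the insulin-signalling kinase, at 0.05, 0.33 and 0.13. Gpt2, the mitochondrial alanine transaminase, stood at 0.07, 0.24 and 0.27, and Pgm5, a relative of phosphoglucomutase, at -0.13, -0.41 and -0.57.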

How the data were processed

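Quadriceps RNA, pooled from 3 mice for each array, was hybridised to 12 Affymetrix mouse arrays. Each deposited intensity is the MAS5 signal of a probe set, on a linear scale, per the submitters' processing notes, and the trimmed mean of every array was 200 when recomputed. The MAS5 version is not given in the sources used here, nor is a build. Of 45101 probe sets, 64 were controls, 34945 had 1 gene symbol, 932 several and 9160 none, by an annotation that can be old. All 29 genes tested matched RefSeq by gene ID with the same symbol.

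Signals under 1 were raised to 1 (3531 of 540444 values) before log2 was taken. Probe sets in the lowest 40% by mean, under a signal of 28.2, were dropped, and 27022 remained. Probe sets with several symbols or none were left out, so Hk1 is read from a dimmer probe set than a 6-symbol one that also names it. The brightest remaining probe set stood for each gene. Group means over all 12 arrays were fitted in limma 3.58.1 (R 4.3.3) with a variance trend, 8 residual and 5.91 prior degrees of freedom. Tests were two-sided, with Benjamini-Hochberg adjustment over 12771 genes and calls at an adjusted p below 0.05. The interaction is the combination's difference from vehicle less the sum of the differences of both single drugs. Values after ± are SEs, which are equal in all 3 comparisons with vehicle and are given once per gene. The fit was tested on simulated data. Arrays give no read depth, and their number limits the precision.

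Values on every array are given for 16 genes: those of smallest F test p, those of largest difference in each direction against vehicle, and Slc2a4, Hk2, Ldha, Ldhb, Gys1 and Pygm. Aldoa, and the arrays quoted for Pgam2, Gapdh and Slc16a3, were added after their values were seen. Of the other pathway genes, those called and those with the 6 smallest F tests are named. The genes, lists, rules and markers were chosen with earlier results of these data known. Of the remaining marker lists, slow-twitch (8 of 9 past the filter), endothelial (10 of 10), macrophage (10 of 10), red blood cell (4 of 10) and Schwann cell (4 of 7), 0 genes were called against vehicle.

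Other settings tried were quantile normalization or centring on the median, log2 of the signal plus 32, filters at 0% and 60%, averaging a gene's probe sets, other variance models, fits of the compared groups alone, array weights, the replicate number as a block, and leaving out each array. Unadjusted counts, overlap counts, role medians and marker correlations were added after the data were seen.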

Additional observations from a re-analysis of the deposited data

How the results depend on the processing

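Of 159 alternative counts of genes called, 158 were 0. The exception was the combination against vehicle, where leaving out 1 array gave 0 to 1, the 1 being Ugp2 without GW1516 array 2. The median difference over the 29 genes was less firm. With AICAR it was 0.04, and -0.074 after median centring. With the combination it was 0.06, -0.017 after median centring and -0.0050 after quantile normalization. With GW1516 it was 0.02, and -0.0059 to 0.083 with 1 array left out, the highest without GW1516 array 2. At an unadjusted p below 0.05 the F test gave 4 of 29 genes, and 10 without GW1516 array 1, without GW1516 array 2 or with array weights. Shares over all genes were not computed in the alternative settings, so their counts have no background beside them. Of 1056 alternative values of single genes, 42 changed sign and 1 had an adjusted p below 0.05.

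Arrays with the same replicate number did not deviate together: over 18 pairs, r ran from -0.11 to 0.07, so the numbers did not pair the arrays. With the replicate number as a block, 0 of 29 genes were called in every comparison, and 4 passed an unadjusted p below 0.05 with AICAR, 4 with GW1516 and 4 with the combination, where 5 did without the block. Shares over all genes were not computed with the block.

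With 3 arrays a group, the intervals of 7 to 9 of the 29 genes reached past 1.5-fold in each comparison with vehicle.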
